A study of Mus musculus with 8 samples.

Results

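WNT ligands were followed in the RNA-seq libraries of whole mouse uteri at postnatal day 10 (PD10). The members were 10 genes chosen by name, with earlier results of these data known. They were *Wnt2*, *Wnt4*, *Wnt5a*, *Wnt5b*, *Wnt6*, *Wnt7a*, *Wnt7b*, *Wnt9a*, *Wnt11* and *Wnt16*. The count files listed 27179 genes, of which 16658 were tested, and all 10 members were among the genes tested. They were read in 2 groups that were set with the choice of members, 3 epithelial ligands (*Wnt7a*, *Wnt7b* and *Wnt11*) and 7 stromal ligands. These group names are labels that were not tested, because whole-uterus RNA does not show which cells express a ligand. Controls carried the floxed *Ezh2* alleles without Cre (Ezh2 f/f, 4 uteri), and in *Ezh2 Amhr2*-Cre cKO mice these alleles were joined by Cre driven by *Amhr2* (Ezh2 f/f; Acre, 4 uteri). *Amhr2*-Cre acts in cells that derive from the mesenchyme of the Mullerian duct, so the uterine epithelium lies outside its intended target, and a whole uterus mixes deleted and undeleted cells. In whole tissue, fewer cells of a type and less RNA per cell cannot be told apart. EZH2 is the histone methyltransferase of polycomb repressive complex 2, which keeps developmental genes silent.

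WNT proteins are secreted, lipid-modified signals. Porcupine (PORCN) attaches the lipid, Wntless (WLS) carries the ligand to the cell surface, and Frizzled receptors take it up together with LRP5 or LRP6 to stabilize beta-catenin, or with ROR2 or RYK in beta-catenin-independent signaling. In the neonatal mouse uterus, WNT7A from the epithelium and WNT4 and WNT5A from the stroma are known for their part in patterning the endometrium and in forming its glands.

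Expression is given as counts scaled to library size with TMM (CPM), and a positive log2 fold change means higher in cKO uteri. The libraries held between 25287141 and 36685807 counts, at which 3 counts, the most that a count of 0 allows, equal 0.0818 to 0.119 CPM, for counting error only. The targeted gene *Ezh2* was at 45.0 ± 8.70 CPM in the controls and 36.8 ± 4.41 CPM in the cKO group (SD, n = 4 each), and its log2 fold change of -0.29 missed the threshold (edgeR adjusted p of 0.247) with overlapping libraries. These counts cover the whole gene, not the floxed exons, and so check the genotype only weakly. Marker transcripts of several cell types and tissues differed between libraries, most of all those of fat. Whether any of them came from tissue beside the uterus was not tested. The summed CPM of 9 fat markers (7 tested, *Pparg* and *Adrb3* called) was 3.44 to 5.34 in control uteri, 99.2, 226.4 and 101.0 in cKO replicates 1 to 3 and 5.53 in cKO replicate 4, with *Fabp4*, a fatty acid carrier of adipocytes, as the highest marker. The 12 epithelial markers, led by the keratin gene *Krt8*, summed to 1490 to 1739 CPM in the control and 1636 to 2011 CPM in cKO uteri, and the 11 stromal markers, led by *Col3a1*, to 9400 to 11988 and 10861 to 13659 CPM. None of the epithelial markers passed the edgeR test (3 at an unadjusted p under 0.05, *Krt18*, *Krt19* and *Cldn4*), and 3 stromal markers did, *Col3a1* higher and *Hoxa10* and *Hoxa11* lower. Of the gland markers, *Foxa2* and *Cxcl15* fell and *Sox17* rose. Of the skeletal muscle markers, *Myh3*, an embryonic myosin, rose from 0 to 0.143 CPM in control uteri to 0.370 to 1.91 CPM in cKO uteri, and *Myl1* had 0 counts in each control and 30, 30, 6 and 13 counts in cKO replicates 1 to 4, while the list's sum, which is nearly all *Acta1*, overlapped (40.1 to 70.6 against 34.2 to 57.0 CPM). The urothelial sum was 3.95 to 6.49 CPM in control and 7.66 to 9.90 CPM in cKO uteri, with 0 of 4 markers called by edgeR (2 at an unadjusted p under 0.05, *Upk1a* and *Upk2*). The squamous sum was 16.6 to 20.05 and 16.7 to 22.0 CPM, with *Krt6a* at 0 in all libraries and *Krt5* at 4.66 and 4.34 CPM in cKO replicates 1 and 4 against at most 1.18 CPM elsewhere. The ovarian sum, mostly *Foxl2*, was 50.8 to 57.5 and 41.0 to 54.4 CPM, with *Fshr* at 0 in all libraries. The smooth muscle (8952 to 11342 and 9946 to 11244 CPM), mesothelial (59.6 to 160.7 and 102.7 to 153.0 CPM, lowest in control replicate 2), endothelial (494.0 to 651.3 and 528.7 to 658.2 CPM) and oviductal sums (36.5 to 45.3 and 38.3 to 48.8 CPM) overlapped, with 0 of their markers called (5 at an unadjusted p under 0.05, edgeR), although all 9 smooth muscle markers had a log2 fold change above 0 and the ciliated cell marker *Foxj1* one of -0.78 without overlap (edgeR adjusted p of 0.0766).

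Of the 10 ligands, 4 differed between the genotypes at an adjusted p-value under 0.05 (edgeR's quasi-likelihood test, adjusted over all genes tested). *Wnt7b* rose, and *Wnt5a*, *Wnt6* and *Wnt9a* fell. None of the 10 changed by over 2-fold, against 1.3% of all genes that passed both limits. Over all genes tested, 5.34% passed the same threshold, 2.62% higher and 2.71% lower. In 5 ligands, these 4 and *Wnt2*, the libraries of the 2 genotypes did not overlap, which was so for 12.3% of all genes. Of the 5, 1 was higher and 4 were lower, against 5.9% and 6.43% of all genes. The median log2 fold change was -0.21 over the 10 ligands and 0.00 over all genes. The alternatives are drawn in the plot of settings, and the plot of CPM by uterus shows every value behind these counts.

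**Figure D1:**
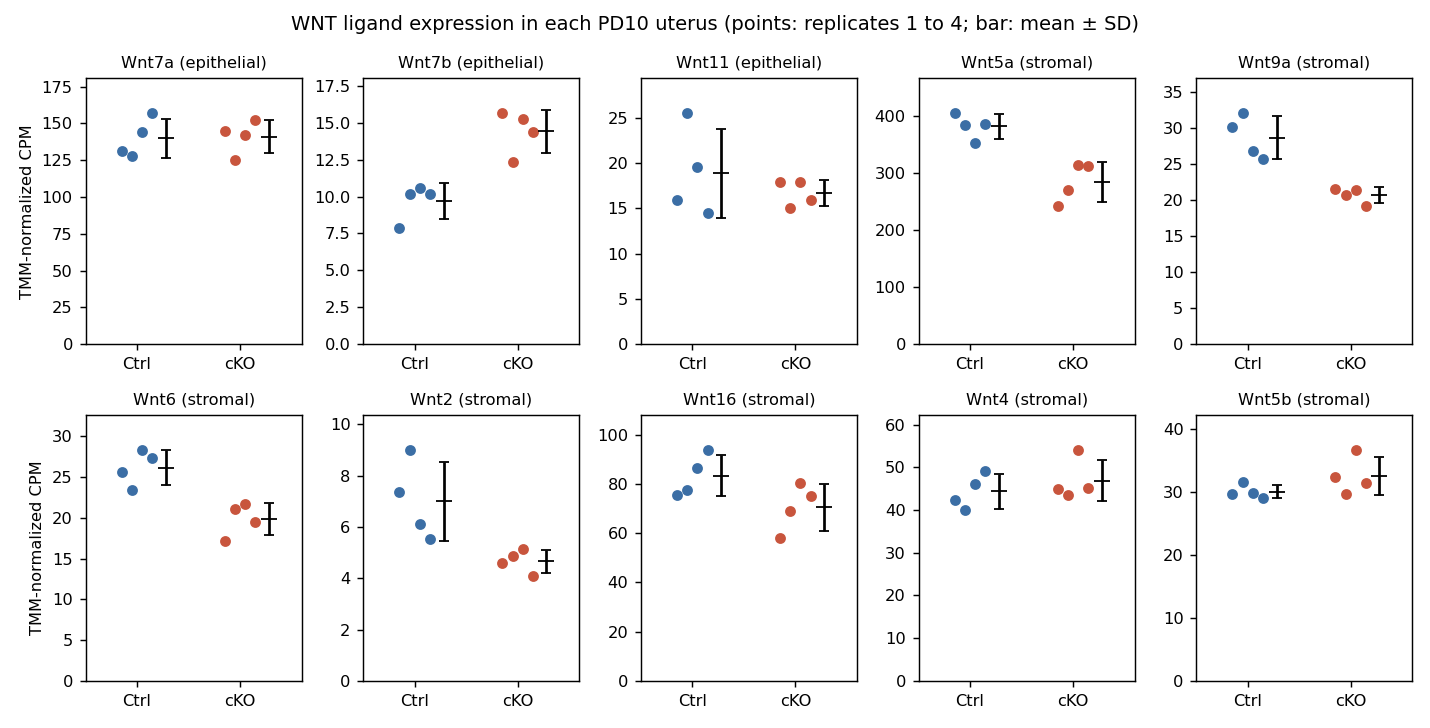
TMM-normalized CPM (y axes, from 0) of the 10 WNT ligands in each PD10 uterus. Points are control (blue) and cKO (red) replicates 1 to 4 from left to right, and bars show mean ± SD of 4 uteri. The points of the 2 genotypes do not overlap in Wnt7b, Wnt5a, Wnt9a, Wnt6 and Wnt2.

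*Wnt5a* (Entrez 22418, GRCm38 chromosome 14 from 28504543 to 28527448), a stromal ligand that often signals without beta-catenin, was at 405.8, 384.1, 354.0 and 386.5 CPM in control replicates 1 to 4 and at 242.8, 270.2, 314.2 and 312.3 CPM in cKO replicates 1 to 4. The lowest control uterus lay above the highest cKO uterus. *Wnt5a* fell by 0.43 on the log2 scale (SE 0.08, edgeR adjusted p of 0.0104), a fold change of 0.745 with a 95% interval from 0.658 to 0.843. Among the cKO uteri, replicates 1 and 2 were lowest. Its log2 fold change was -0.28 with a fat score as covariate (edgeR adjusted p of 0.461) and -0.29 without cKO replicates 1 to 3 (0.503).

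*Wnt9a* (Entrez 216795, chromosome 11 from 59306849 to 59333552), a ligand best known from joint formation, was at 30.2, 32.1, 26.8 and 25.7 CPM in control replicates 1 to 4. In cKO replicates 1 to 4 it was at 21.6, 20.7, 21.4 and 19.2 CPM, below all controls and within a narrow band. It had the smallest p-value of the members, with a log2 fold change of -0.47 (SE 0.08, edgeR adjusted p of 0.00641). Its neighbour on the chromosome, *Wnt3a*, ends 16.1 kb before it and had at most 1 count in any library.

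*Wnt6* (Entrez 22420, chromosome 1 from 74754342 to 74785322), a ligand known from somite and decidual development, was at 25.6, 23.4, 28.4 and 27.3 CPM in control replicates 1 to 4 and at 17.2, 21.1, 21.7 and 19.5 CPM in cKO replicates 1 to 4. Each cKO uterus lay below each control, by least between cKO replicate 3 and control replicate 2. Its log2 fold change was -0.40, with an SE of 0.09 and an edgeR adjusted p of 0.0232. The adjusted p-value lay between 0.0648 and 0.0703 when control replicate 1, 3 or 4 or cKO replicate 1 was left out, and between 0.00197 and 0.413 over all alternatives. *Wnt10a* starts 6.70 kb after *Wnt6* and had 3 to 10 counts per library. *Ihh*, which encodes the hedgehog ligand of the uterine epithelium, starts 160.0 kb after it and fell from 4.36 ± 0.950 to 0.360 ± 0.256 CPM (SD, n = 4 each).

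For *Wnt6* and *Wnt9a*, 2 of the ligands that fell, the promoter windows from RefSeq (250 bases before to 50 bases after the annotated start, GRCm38.p6, both on the plus strand) lie inside or at the outer start of the annotated gene and are shown because polycomb target promoters are typically rich in CpG dinucleotides, and CpG is set in capitals. The *Wnt6* window is chr1:74771642-74771941 and the *Wnt9a* window is chr11:59306680-59306979.
Wnt6: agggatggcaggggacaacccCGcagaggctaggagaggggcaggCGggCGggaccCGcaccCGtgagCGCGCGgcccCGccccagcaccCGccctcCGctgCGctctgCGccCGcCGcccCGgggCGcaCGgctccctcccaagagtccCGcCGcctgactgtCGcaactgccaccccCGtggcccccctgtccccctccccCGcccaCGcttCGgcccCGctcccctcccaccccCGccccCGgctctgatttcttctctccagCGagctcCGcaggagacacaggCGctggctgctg
Wnt9a: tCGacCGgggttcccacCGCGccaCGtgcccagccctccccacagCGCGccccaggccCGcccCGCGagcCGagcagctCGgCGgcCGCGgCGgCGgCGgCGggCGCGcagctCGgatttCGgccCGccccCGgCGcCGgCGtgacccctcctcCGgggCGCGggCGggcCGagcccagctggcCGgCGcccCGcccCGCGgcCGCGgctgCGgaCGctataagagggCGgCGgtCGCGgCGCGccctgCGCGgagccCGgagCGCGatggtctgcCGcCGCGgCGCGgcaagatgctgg

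The *Wnt9a* window held 58 CpG, more than 99.9% of 32851 promoter windows, and the *Wnt6* window held 31, more than 89.4% of them, against a median of 7. Windows were found for 8 of the 10 ligands, but not for the called ligands *Wnt5a* and *Wnt7b*. There were 11 windows in all, and 9 of the 11 were above that median. Among ligands that did not pass the test, *Wnt4* had 51 CpG and *Wnt7a* 42, between the counts of *Wnt6* and *Wnt9a*, and *Wnt2* had 27 and *Wnt16* 10, below both. The 3 windows of *Wnt5b* held 47, 7 and 4, and the 2 of *Wnt11* held 45 and 23. GGGCGG, the GC box bound by SP and KLF factors, which itself holds a CpG, was searched on both strands and found in 9 of the 11 windows (7 of the 8 ligands), with 6 matches in *Wnt6* and 5 in *Wnt9a*, and in 35.7% of all windows. CTTTGA, the core bound by TCF and LEF factors, was found in neither printed window and in 2 of the 11 windows (1 each of *Wnt11* and *Wnt5b*), against 16% of all windows. TATAAA was found in 1 of the 11 windows, of *Wnt11*, and in 13.6% of all windows.

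*Wnt2* (Entrez 22413, chromosome 6 from 17985474 to 18032772), a ligand known from lung specification, was at 7.35, 9.01, 6.10 and 5.55 CPM in control replicates 1 to 4. The cKO replicates 1 to 4 had 4.58, 4.85, 5.14 and 4.10 CPM, below each control. Its log2 fold change of -0.58 (SE 0.16) missed the threshold, with an adjusted p of 0.0552 in edgeR, although it was as large in size as that of *Wnt7b*. The adjusted p-value was 0.0135 with DESeq2, 0.0824 with limma-voom and 0.0321 without control replicate 4, and lay between 0.0012 and 0.57 over all alternatives.

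The other stromal ligands did not pass the reported test. *Wnt16* (chromosome 6 from 22288178 to 22298522) was at 75.7, 77.5, 86.6 and 93.9 CPM in the control and 58.0, 68.9, 80.4 and 75.1 CPM in cKO replicates 1 to 4. Its ranges overlapped, and its log2 fold change was -0.24 (95% interval -0.46 to -0.02, edgeR adjusted p of 0.19). It passed with libraries scaled to the epithelial (edgeR adjusted p of 0.0274) or stromal markers (0.0258), where 6.6% and 11.1% of all genes were called. These scalings moved the median of all genes to -0.165 and -0.261. Relative to that median *Wnt16* was at -0.239 and -0.241, against -0.24 with TMM. It also passed with the epithelial score as a covariate (0.0285) and with a replicate block (0.0377, edgeR), where 10.9% and 7.44% of all genes were called. The adjusted p-value of *Wnt16* lay between 0.0258 and 0.893 over the alternatives with more than 1 cKO library. *Wnt4* (chromosome 4 from 137277635 to 137299501), which stromal cells need for decidualization, was at 44.4 ± 4.05 CPM in the controls and 46.9 ± 4.85 CPM in the cKO group (SD, n = 4 each). The 95% interval of its log2 fold change was -0.10 to 0.26. *Wnt5b* (chromosome 6 from 119432531 to 119544824), the closest relative of *Wnt5a*, was at 30.1 ± 1.11 CPM in the controls and 32.6 ± 3.01 CPM in the cKO group (SD, n = 4 each), with an interval of -0.05 to 0.27. The interval of *Wnt5a* was -0.60 to -0.25, and the difference between the 2 genes was not tested.

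Among the epithelial ligands, *Wnt7b* (Entrez 22422, chromosome 15 from 85535437 to 85581821), known from lung and kidney development, was at 7.85, 10.2, 10.6 and 10.2 CPM in control replicates 1 to 4. The cKO replicates 1 to 4 had 15.7, 12.3, 15.3 and 14.4 CPM, and each cKO uterus lay above each control uterus. It rose by a log2 fold change of 0.57 (SE 0.11, edgeR adjusted p of 0.0126), a fold change of 1.49 with a 95% interval from 1.25 to 1.77. Control replicate 1 lay below the other controls, and the log2 fold change without it was 0.48 (edgeR adjusted p of 0.0408).

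*Wnt7a* (Entrez 22421, chromosome 6 from 91363981 to 91411353), which the uterus needs for its glands and radial pattern, was at 131.5, 127.8, 144.0 and 157.0 CPM in control replicates 1 to 4. The cKO replicates 1 to 4 had 144.6, 125.0, 142.2 and 152.0 CPM, and the 2 ranges overlapped almost wholly. Its log2 fold change was 0.01 (SE 0.08, edgeR adjusted p of 0.963), and the 95% interval of the fold change was 0.896 to 1.13. *Wnt11* (chromosome 7 from 98835084 to 98854747), a ligand that acts largely without beta-catenin, was at 15.9, 25.5, 19.6 and 14.5 CPM in the control and 17.9, 15.03, 17.9 and 15.9 CPM in cKO replicates 1 to 4. Its log2 fold change of -0.17 (95% interval -0.51 to 0.17, edgeR adjusted p of 0.563) turned without control replicate 2, where it was 0.0076.

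*Wnt7a* and *Wnt7b* are close relatives, so their ratio within a uterus was compared as well. Without scaling by length, *Wnt7a* had 16.7, 12.6, 13.6 and 15.5 times the CPM of *Wnt7b* in control replicates 1 to 4 and 9.24, 10.1, 9.30 and 10.6 times in cKO replicates 1 to 4. The log2 ratio of *Wnt7b* to *Wnt7a* was -3.85 ± 0.183 in control and -3.28 ± 0.095 in cKO uteri (SD, n = 4 each). It was 0.56 higher in cKO uteri (exact permutation test, two-sided p = 0.0286, the smallest that 4 against 4 allow), and higher in 4 of 4 cKO uteri than in any control.

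The plot of log2 fold changes sets the ligands side by side.

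**Figure D2:**
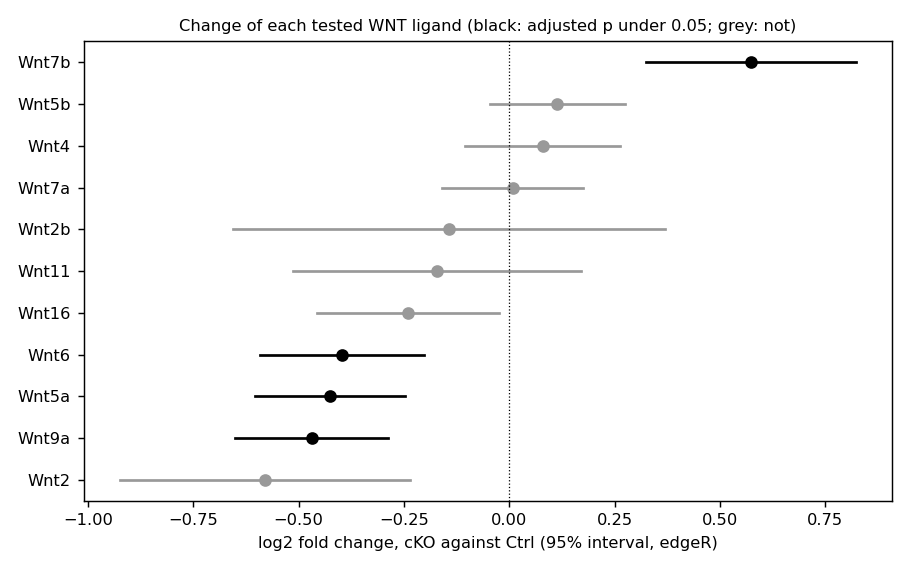
Log2 fold change of each tested WNT ligand in cKO against control uteri (x axis), with the 95% interval from edgeR. Black marks an adjusted p-value under 0.05, which Wnt7b passed on the higher side and Wnt6, Wnt5a and Wnt9a on the lower side.

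The ligands were set beside the fat, epithelial and stromal markers. With cKO replicate 4, whose fat markers summed to 5.53 CPM, as the only cKO uterus, the log2 fold changes were 0.58 in *Wnt7b*, -0.29 in *Wnt5a*, -0.42 in *Wnt6* and -0.57 in *Wnt9a*, and 0 of the 10 ligands passed the threshold (5 at an unadjusted p under 0.05, edgeR), where 0.217% of all genes passed it and 7.22% had such an unadjusted p. With a fat score as a covariate 0 ligands passed as well (5 at an unadjusted p under 0.05, edgeR), where 0.63% of all genes passed and 9.09% had such an unadjusted p. The log2 fold changes were 0.60, -0.28, -0.41 and -0.58 in the same order. All 12 epithelial markers had a log2 fold change above 0, with a median of 0.13. Per summed CPM of these markers, *Wnt7b* was still higher in each cKO uterus than in each control, by 0.41 on the log2 scale, while *Wnt7a* was lower in each cKO uterus, with a difference of -0.16. Per summed CPM of the stromal markers, the difference was -0.69 in *Wnt5a*, -0.66 in *Wnt6*, -0.73 in *Wnt9a* and -0.82 in *Wnt2*, without overlap of the genotypes, and these sums are led by collagen transcripts, of which *Col3a1* was itself higher. With libraries scaled to the epithelial markers, the adjusted p-value of *Wnt7b* was 0.0633 (edgeR) and its log2 fold change 0.41, while the median of all genes moved to -0.17. Scaled to the stromal markers, *Wnt7b* was at 0.31 (edgeR adjusted p of 0.144) and the median of all genes at -0.26. A scaling shifts all genes alike, so these fits do not bear on the place of *Wnt7b* among them. The share of called genes that were higher was 49.2% with TMM, 11.7% with the epithelial and 8.04% with the stromal scaling. With the epithelial score as a covariate, *Wnt7b* was at 0.45 (edgeR adjusted p of 0.0352), where 10.9% of all genes were called. *Wnt5a*, *Wnt6* and *Wnt9a* were also called in that fit, at -0.48, -0.44 and -0.36. *Wnt2* was at -0.37 there (edgeR adjusted p of 0.186). The part of the other tissues and of cell composition in these changes was not tested beyond these values.

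**Figure D3:**
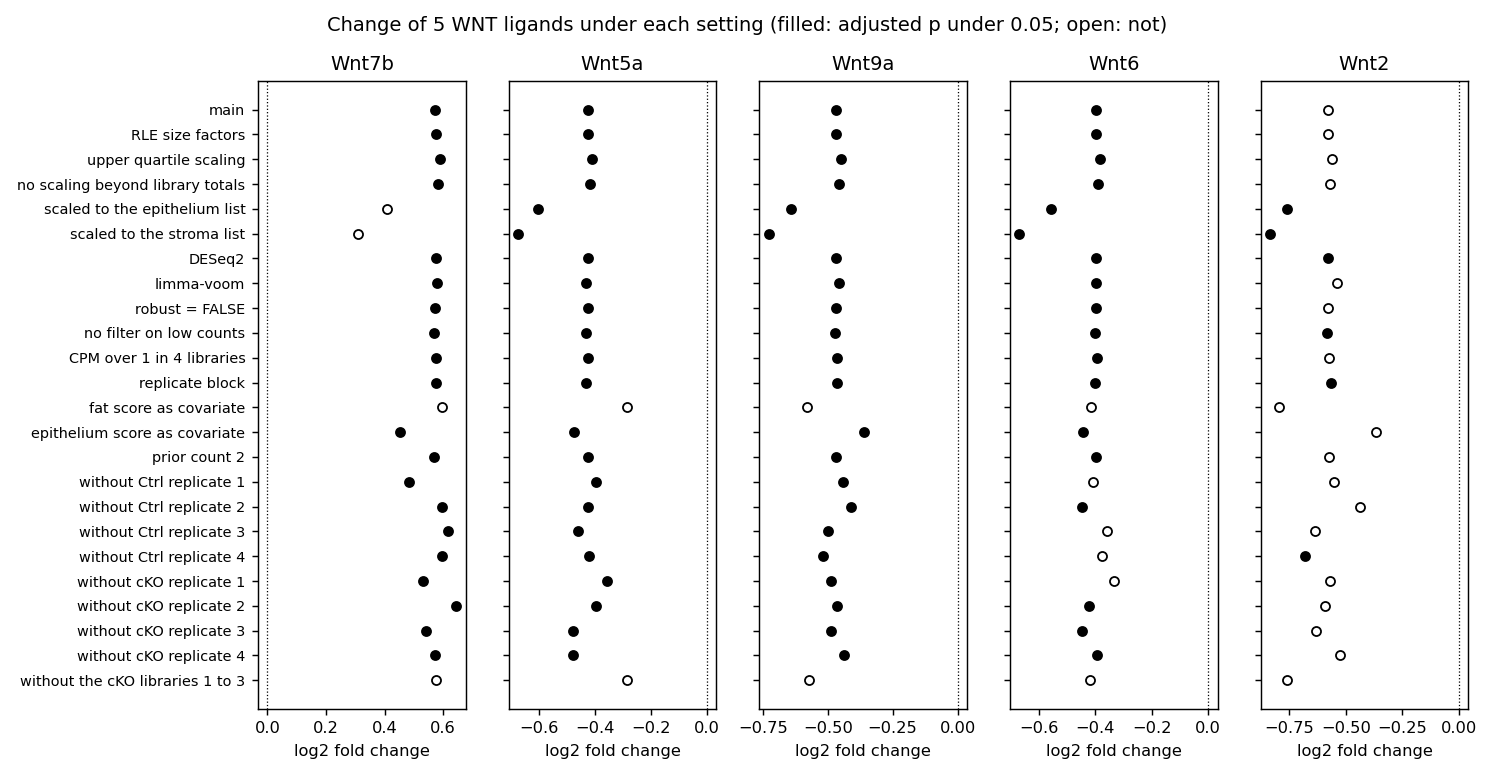
Log2 fold change (x axes) of Wnt7b, Wnt5a, Wnt9a, Wnt6 and Wnt2 under each processing setting, the reported one on top. Filled points have an adjusted p-value under 0.05. Direction is kept in every setting, and the 4 called ligands are open with the fat score and without cKO replicates 1 to 3.

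To compare levels between genes, CPM was divided by the length of the merged exons of each gene in the GENCODE M21 annotation of GRCm38. Per kb of exon, *Wnt5a* (48.9 ± 2.74, SD, n = 4) and *Wnt7a* (44.1 ± 4.18) led in control uteri and did not differ beyond their spread, with *Wnt5a* higher in 2 of 4 uteri. In cKO uteri *Wnt7a* was above *Wnt5a* in 4 of 4 (44.4 ± 3.59 against 36.4 ± 4.43). *Wnt16* followed with 19.1 ± 1.94, apart from both its neighbours. *Wnt6* (11.9 ± 0.983), *Wnt5b* (11.3 ± 0.418), *Wnt4* (10.6 ± 0.965) and *Wnt9a* (8.62 ± 0.893) came next, and each overlapped with the next in its control range. In cKO uteri *Wnt6* fell behind *Wnt5b* in all 4. After a step that no control uterus crossed, *Wnt11* (4.56 ± 1.19), *Wnt2b* (3.17 ± 0.863) and *Wnt2* (3.11 ± 0.682) overlapped one with the next. *Wnt7b*, apart from *Wnt2*, was the lowest of the ligands tested, with 1.98 ± 0.252 CPM per kb. In cKO uteri it reached 2.94 ± 0.302 and lay above *Wnt2* (2.07 ± 0.197) in all 4. Of the summed length-scaled level of all WNT ligands, *Wnt5a* made up 29.2% ± 1.97 in control and 24.6% ± 1.70 in cKO uteri (SD, n = 4 each), and *Wnt7a* 26.3% ± 1.67 and 30.1% ± 2.02.

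**Figure D4:**
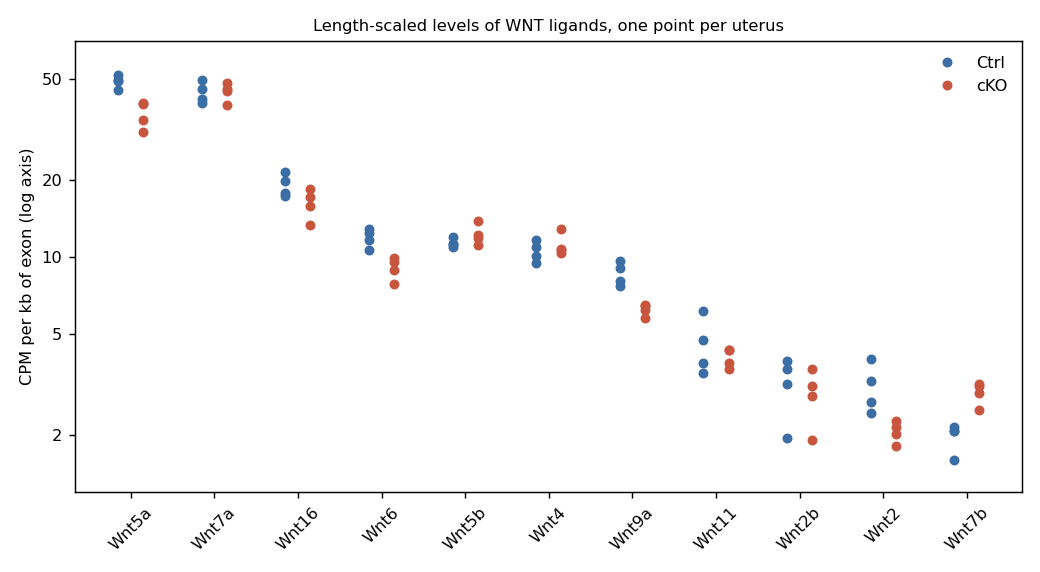
CPM per kb of merged exons (log axis) of the WNT ligands tested, in order of the control mean, with one point per uterus (blue, control; red, cKO). Wnt5a and Wnt7a lead at 48.9 and 44.1 in control uteri, and Wnt7b is lowest at 1.98.

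Of 9 further WNT ligands, which were no members, only *Wnt2b* was tested. It was at 13.3 ± 3.63 CPM in the controls and 12.1 ± 3.03 CPM in the cKO group (SD, n = 4 each), with a log2 fold change of -0.14 (95% interval -0.66 to 0.37, edgeR adjusted p of 0.762). The other 8 (*Wnt1*, *Wnt3*, *Wnt3a*, *Wnt8a*, *Wnt8b*, *Wnt9b*, *Wnt10a* and *Wnt10b*) had at most 11 counts in a library, under the filter. *Wnt9b* had 8, 5, 9 and 11 counts in control replicates 1 to 4 and 0, 3, 0 and 2 counts in cKO replicates 1 to 4. These did not overlap, and in the edgeR test without a filter on low counts, where 4.46% of all genes were called, *Wnt9b* had a log2 fold change of -2.54 (SE 0.70, adjusted p of 0.0436).

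The genes that make, receive or answer WNT ligands were taken from 6 lists that also held *Wnt2b*, and of 63 genes tested on them 9 were called, 0 higher and 9 lower (14.3%, against 5.34% of all genes). Of all genes, 2.71% were called lower, and the lists were chosen with earlier results of these data known. When single libraries were left out, the number called lay between 2, without control replicate 1, and 10, without cKO replicate 4, where 2.38% and 10.7% of all genes were called. It was 13 with the stromal scaling, where 11.1% of all genes were called, and 0 with a fat score as covariate or without cKO replicates 1 to 3 (11 and 8 at an unadjusted p under 0.05, edgeR). The count of higher genes was 1 with DESeq2, with robust = FALSE, with a replicate block and without control replicate 2 or cKO replicate 4. It was 2 with the epithelial score as a covariate. In ligand secretion, 0 of 4 genes passed (1 at an unadjusted p under 0.05 by edgeR). *Wls* was at 376.3 ± 12.0 CPM in the control and 357.9 ± 17.5 CPM in cKO uteri, and *Porcn* had a log2 fold change of 0.31 (edgeR adjusted p of 0.212). Of 16 receptors, 1 passed. *Ror2*, a receptor for WNT5A, was at 46.9, 48.5, 44.6 and 46.6 CPM in the control and 37.2, 37.3, 38.4 and 42.1 CPM in cKO replicates 1 to 4, without overlap, and its log2 fold change was -0.27 (SE 0.06, edgeR adjusted p of 0.0258). *Ptk7*, the receptor with the most counts, had a log2 fold change of 0.17 (edgeR adjusted p of 0.278). Of 8 genes tested in the R-spondin axis, which prolongs Frizzled signaling, 0 passed (0 at an unadjusted p under 0.05 by edgeR), and *Rspo3*, which had the most counts of them, was at -0.13 on the log2 fold change scale.

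Of 12 secreted inhibitors tested, 3 fell and 0 rose, while 7 had a log2 fold change above 0 and 5 below it. *Sfrp2*, which binds WNT proteins outside the cell, had a log2 fold change of -0.22 and *Dkk3*, a member of the Dickkopf family, of -0.32. *Wif1*, another WNT-binding protein, was at 0.604 to 1.28 CPM in control uteri and had 0 to 4 counts in a cKO library. *Dkk2*, chosen after its values were seen, lay on the other side without passing, with 128.6, 111.6, 92.9 and 126.9 CPM in control and 143.0, 187.4, 190.6 and 132.6 CPM in cKO replicates 1 to 4, no overlap and a log2 fold change of 0.51 (edgeR adjusted p of 0.0657). *Sfrp4*, also chosen so, was at 0.45 (edgeR adjusted p of 0.25) with overlap. Of 22 intracellular components and target genes, 5 were lower, and *Ctnnb1*, which encodes beta-catenin, was at -0.06 (edgeR adjusted p of 0.586). The 5 were *Axin2*, the common feedback target of beta-catenin (-0.34), the beta-catenin partners *Lef1* (-0.54) and *Tcf7* (-0.26), *Daam2* (-0.27) and the target *Sp5*. *Sp5* was at 1.23, 1.08, 2.35 and 1.35 CPM in the control and 0.388, 0.234, 0.185 and 0.245 CPM in cKO replicates 1 to 4, a log2 fold change of -2.52 (SE 0.34, edgeR adjusted p of 0.00107). Of the 9, only *Sp5* and *Wif1* changed by over 2-fold.

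**Figure D5:**
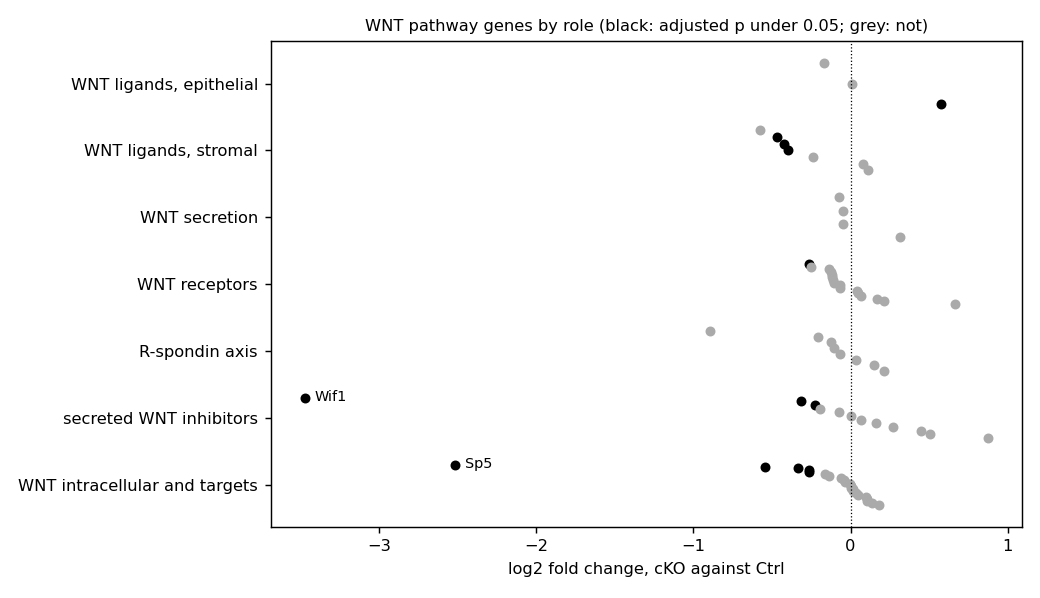
Log2 fold change in cKO against control uteri (x axis) of the WNT pathway genes tested, one point per gene, by role. Black points have an adjusted p-value under 0.05 in edgeR. Wif1 and Sp5 lie farthest to the left, and the one black point above 0 is Wnt7b.

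For each called ligand, the 3 genes with the most similar levels were sought among 14455 other genes with a mean of at least 1 CPM. Likeness was Pearson's r of log2 CPM over the 8 libraries, which share the genotype difference, and it is given as a description. For *Wnt7b* these were *Slc6a14*, *Zbtb7b* and *Lmo4* (r = 0.979 to 0.976), for *Wnt5a* *Thbs1*, *Epb41l3* and *Prkar2a* (0.988 to 0.982), for *Wnt6* *Efhd1*, *Prom1* and *Trim5* (0.987 to 0.981) and for *Wnt9a* *Scnn1a*, *Edil3* and *Cygb* (0.991 to 0.988). With the mean of each genotype removed, r lay between 0.887 and 0.959 for these 12 pairs.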

How the data were processed

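The RNA-seq libraries came from whole PD10 uteri, 4 control and 4 cKO. Per the labels and methods, the authors prepared stranded mRNA libraries, used Trimmomatic for trimming, HISAT2 for alignment to GRCm38 and featureCounts for counting, and deposited raw counts per Entrez gene. Tool versions, annotation and strand setting are not given in the sources used here. The authors' deposited comparison table served only to pair symbols with identifiers, and its fold changes and p-values, as well as 8 columns of log2 CPM in another table, were not used. Genes that exceeded 0.2 CPM in 4 or more libraries entered edgeR 4.0.16 in R 4.3.3 with TMM, robust = TRUE and Benjamini-Hochberg adjustment over all 16658 genes, as in the study. The functions glmQLFit and glmQLFTest and the prior count of 0.125 were chosen here. The standard error is the log2 fold change over the square root of F. The exact permutation test used log2(CPM + 0.1) over 70 arrangements.

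The members and lists were chosen with earlier results of these data known. Named genes are all WNT ligands, pathway and marker genes called, the gene with the highest CPM of each pathway list and of the epithelial, stromal and fat lists, *Ezh2*, *Ihh*, and the 3 genes most like each called ligand. Further markers named, *Porcn*, *Dkk2* and *Sfrp4* were chosen after their values were seen. Other scalings, filters and tests (DESeq2 1.42.0, limma 3.58.1), covariates, a replicate block and leaving out each library were tried. Library pairs differed by 7.8 to 31.8 chi-square per gene. Nothing in the labels names a batch.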

Additional observations from a re-analysis of the deposited data

Results flagged for a closer look

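Of 24 groups of 4 libraries examined (11 WNT ligands and *Ezh2* in each genotype), 2 held a sample far from the others by Dixon's limit for 4 samples, and chance gives about 1 in 20. *Wnt7b* in control replicate 1 was at 7.85 CPM, below the other controls at 10.2 to 10.6 CPM. *Wnt4* in cKO replicate 3 was at 54.1 CPM, above the other cKO uteri at 43.5 to 45.1 CPM, and without that library the log2 fold change of *Wnt4* was 0.00 in place of 0.08.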

How the results depend on the processing

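Over 23 alternatives, the number of ligands called was 4 in 12, between 3 and 6 in 21, and 0 with the fat score as a covariate or without cKO replicates 1 to 3, the latter chosen after seeing the data. That last fit has a single cKO library, which is assumed to vary like the controls. The number of other WNT pathway genes called was also 0 in these 2, where 105 and 35 of all genes were called in place of 889. Leaving out one library gave 3 to 4 ligands and 2 to 10 pathway genes, with 2 without control replicate 1, 5 and 4 without control replicates 3 and 4, and 3 without cKO replicate 1 or 2, while all genes called ran from 393 (without control replicate 1) to 1773 (without cKO replicate 4). *Wnt7b*, *Wnt5a*, *Wnt6* and *Wnt9a* kept their direction in 92 of 92 values and were called in 78. Deviations of same-numbered libraries had r = 0.024, 0.113, -0.004 and 0.194 for numbers 1 to 4. Pairs of unlike number had r from -0.189 to 0.166, so number 4 had the highest value of all pairs. The replicate block gave 6 ligands, adding *Wnt2* and *Wnt16*, and 1240 genes in all, and 1 higher pathway gene. With the numbers as a replicate block, the *Wnt7b* to *Wnt7a* log2 ratio differed by 0.561 with an exact p of 0.13, the smallest that 4 pairs allow, and leaving out one library gave 0.494 to 0.63. *Ezh2* lay between -0.390 and -0.181 without one library. Scaling to the epithelial or stromal markers moved the median of all genes to -0.165 and -0.261 and turned *Wnt7a* (-0.16 and -0.25), *Wnt4* (-0.082 and -0.19) and *Wnt5b* (-0.057 and -0.15). Relative to that median, *Wnt7a* was at 0.009 and 0.01, *Wnt4* at 0.083 and 0.07 and *Wnt5b* at 0.108 and 0.113. With TMM these values were 0.009, 0.08 and 0.114, so the 3 ligands kept their place among all genes. With the stromal scaling 8.04% of called genes were higher. The epithelial score as a covariate turned *Wnt7a* (-0.13) and *Wnt4* (-0.012), and the fat score turned *Wnt2b* (0.0028). Without one library, *Wnt7a* lay between -0.034 and 0.068, *Wnt4* between 0.00 and 0.13, *Wnt11* between -0.28 and 0.0076 and *Wnt2b* between -0.31 and 0.0089. The cause of the shifts with a covariate or without one library was not tested. The plot of the ligands under each setting shows 5 of them.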
